A study of Mus musculus with 4 samples.

Results

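Hyaluronan is a long sugar polymer of the extracellular matrix, made at the cell surface by the hyaluronan synthases and taken apart by hyaluronidases. Aggrecan and versican are proteoglycans that bind it through a globular head, and link proteins lock that bond, which gives cartilage its resistance to compression. CD44 is the main hyaluronan receptor of the cell surface, used by stromal and blood cells alike for adhesion within bone marrow. The genes described here are Acan (aggrecan), Vcan (versican), the link protein genes Hapln1 and Hapln3, the synthase genes Has1, Has2 and Has3, the hyaluronidase genes Hyal1 and Hyal2, and Cd44. These 10 of the 37310 genes in the counts were picked by function, with the age comparison of these same libraries already known, so their differences between ages are given as a description.

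The libraries compare cells of mature (3-month-old) with elderly (24-month-old) wild-type C57Bl/6 male mice, with 2 libraries per age. The study's methods describe bone marrow cells sorted as negative for Ter119, CD31 and CD45 and positive for the leptin receptor (Lin-LEPR+), whereas the sample labels name whole marrow. By the methods, the RNA of 3 or 4 mice was combined for each group, whereas each sample title names a single mouse, so n = 2 counts libraries, and how many mice each held is not settled. Nothing states that the libraries of an age were prepared apart. The p-values therefore measure the spread between these libraries, which may be technical. By the methods, most samples had poly-adenylated RNA selected. The exceptions, which include a sample named by an age in weeks, were processed as total RNA. Whether they include the mature libraries is not settled, so RNA selection may differ between the ages, and its part in the results was not tested. The total was between 10472117 and 15650518 counts, and levels are in CPM, the counts brought to a common library total after scaling by edgeR's TMM factor.

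Markers of other cells moved with age, and their part in the results was not tested. Cxcl12 (mean 12718 CPM in mature and 8212 CPM in elderly), Lepr (6042 and 4915 CPM) and Kitl led the list of LEPR+ stromal genes. The summed level of this list was 26543 and 27370 CPM at 3 months and 16755 and 23175 CPM at 24 months, with 0 of 9 called. Its median log2 fold change (elderly over mature) was −0.30. The elderly pair was below the mature pair for 6 of the 9 (18.9% of all genes) and above it for 0 (22% of all genes). Over all genes tested, 1.94% were called higher and 0.423% lower in elderly mice. Of 8 neutrophil genes tested, 6 were called higher in elderly (summed level 1205 to 2129 CPM in mature, 4391 to 4628 CPM in elderly), as were 4 of 6 erythroid genes (92.2 to 236 against 807 to 809 CPM), 4 of 8 monocyte and macrophage genes (43.7 to 52.3 against 103 to 138 CPM), 2 of 4 plasma cell genes (117 to 140.2 against 145 to 159 CPM) and 1 of 5 T and NK cell genes (0.517 to 1.12 against 6.05 to 12 CPM). No gene was called of 6 B lineage (12 to 13.5 against 19.3 to 27.8 CPM), 6 megakaryocyte (19.6 to 229 against 95 to 170.4 CPM) and 5 endothelial genes (19.8 to 29.6 against 24.0 to 25.4 CPM). Pecam1 led the endothelial sum, with a mean of 19.3 CPM in mature and 10.8 CPM in elderly mice. The median log2 fold change (elderly over mature) of that list was 0.63. The elderly pair was above the mature pair for 2 of its genes (22% of all genes) and below it for 0 (18.9% of all genes). Sdc1 and Xbp1 led the plasma cell sum and were lower in elderly mice. Jchain and Prdm1 were called higher, Jchain at a mean of 3.50 CPM in mature and 56.6 CPM in elderly mice. Of 8 osteoblast genes, 1 was called higher (Col1a1) and 1 lower (Ibsp), with a median log2 fold change of 0.15. Their summed level was 6422 to 7049 against 2154 to 4022 CPM. Ibsp alone made up 6631 and 5940 CPM of this sum in mature and 1450 and 3291 CPM in elderly mice. Col1a1 had a mean of 286 CPM in mature and 537 CPM in elderly mice. In such bulk samples, fewer cells of a type and less RNA per cell cannot be told apart.

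The counts do not cover all of each gene. They were deposited per Ensembl transcript, and a base that several transcripts share, on either strand, gave no counts: the 25621 transcripts that share every exonic base with another were at 0 throughout. Acan, Hapln1, Hapln3, Has1, Has3 and Hyal2 have 1 annotated transcript each and were countable over all of their exonic bases, and Has2 over 95.7% of them, with 182 bases lost to the antisense gene Has2as. Vcan was countable over 7.33%, Hyal1 over 18.5% and Cd44 over 17.5%. For Cd44, 1122 of the 1197 countable bases lie in a single block, chr2:102692050-102693171 (NCBIM37), which belongs to the retained-intron transcript Cd44-005. That transcript held 114 and 68 of the 119 and 72 counts of Cd44 in the mature libraries and 163 and 130 of the 174 and 137 in the elderly libraries. The spliced messenger RNA of Cd44 was thus nearly unmeasured. For Vcan, the short transcript Vcan-007 (309 countable bases) held 28 and 27 of the 32 and 45 counts in the mature libraries, and most of the others lay on the retained-intron transcript Vcan-003, while 5 of its 10 transcripts had no countable base. For Hyal1, all counts fell on Hyal1-002, and 1988 of its 3804 exonic bases are shared with Hyal3 and Nat6. Of its 702 countable bases, 317 lie at chr9:107483310-107483626 and 374 at chr9:107483668-107484041. These blocks lie past the end of the transcript Hyal1-001 (107483309) and within the span of Hyal3 on the same strand. Hyal1-001 itself had no countable base and was unmeasured.

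**Figure D1:**
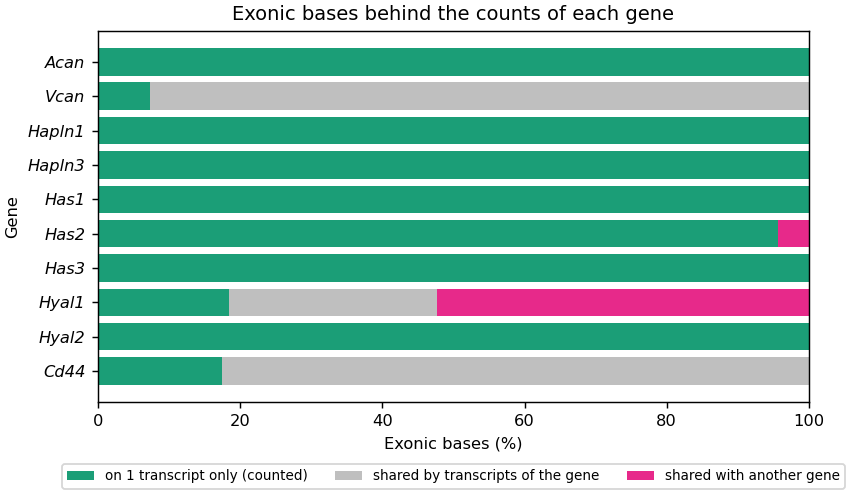
Share of the exonic bases of each gene (%, horizontal axis) that lie on 1 transcript only and could be counted, that are shared between transcripts of the gene, or that are shared with another gene. Of the 10 genes, 7 were countable over more than 90% of their bases, whereas Vcan, Hyal1 and Cd44 were countable over 7.33%, 18.5% and 17.5%.

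The proteoglycan and link protein genes stand in pairs in the genome. Acan (chr7:86198369-86259985, forward strand) and Hapln3 (chr7:86260026-86275895, reverse strand) run toward each other, and 40 bases separate their annotated ends. Hapln1 (chr13:89680241-89751437, forward) and Vcan (chr13:89794915-89882117, reverse) are likewise end to end, with 43477 bases between them. Hyal2 (chr9:107471448-107475107) and Hyal1 (chr9:107479258-107485174) follow each other on the forward strand. The synthase genes are apart, Has1 at chr17:17980292-17992152, Has2 at chr15:56497182-56526094 and Has3 at chr8:109394142-109406802. These positions are those of GENCODE release M1 on NCBIM37 (mm9).

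The 250 bases upstream of the RefSeq start (GRCm38.p6) are shown for Acan and Hapln1, which were far lower in elderly mice, and Hapln3, which was higher in elderly mice. RefSeq's table held an entry for 8 of the 10 genes, not for Has2 and Has3. Capitals mark matches, on either strand, to 4 short motifs. The first motif, known as the TATA box, was searched for with the letters TATAAA in this order. The next, the GC box bound by Sp family factors, was searched for with the letters GGGCGG in the same way. Another was the CCAAT box, named for its own letters. The last, the core bound by SOX family factors of the cartilage lineage, was searched for with the letters ACAATG on both strands. Of these matches, 2 of the GC box matches of Acan overlap each other. They are, in turn, chr7:79052976-79053225 (forward), chr13:89540386-89540635 (forward) and chr7:79131019-79131268 (reverse).
Acan: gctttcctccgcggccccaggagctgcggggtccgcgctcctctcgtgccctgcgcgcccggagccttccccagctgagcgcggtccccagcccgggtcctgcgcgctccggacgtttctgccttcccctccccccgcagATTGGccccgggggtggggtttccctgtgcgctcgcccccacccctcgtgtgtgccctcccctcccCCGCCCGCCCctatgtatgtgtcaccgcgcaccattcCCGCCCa
Hapln1: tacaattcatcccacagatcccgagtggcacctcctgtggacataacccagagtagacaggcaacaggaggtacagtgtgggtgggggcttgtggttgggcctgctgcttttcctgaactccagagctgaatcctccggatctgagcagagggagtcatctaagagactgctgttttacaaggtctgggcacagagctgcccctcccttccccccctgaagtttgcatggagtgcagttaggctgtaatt
Hapln3: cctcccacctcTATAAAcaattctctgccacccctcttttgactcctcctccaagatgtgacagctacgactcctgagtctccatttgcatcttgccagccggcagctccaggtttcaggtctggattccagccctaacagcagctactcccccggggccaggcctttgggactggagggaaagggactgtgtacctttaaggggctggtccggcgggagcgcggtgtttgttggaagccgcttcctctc

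The upstream sequences of Acan and Hapln1 differed in base composition. That of Acan was 74.4% G and C with 26 CpG dinucleotides and held 3 GC box matches and 1 CCAAT box match, whereas that of Hapln1 was 54.4% G and C with 2 CpG and held no match. That of Hapln3 was 58.0% G and C with 8 CpG and 1 TATA box match, 239 bases before the start. Over all 32851 upstream sequences of the table, the medians were 52.4% and 6 CpG, and a match was found in 12.4% for the TATA box, 32.7% for the GC box, 33.8% for the CCAAT box and 10.7% for the SOX core. A match is a match of letters only.

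Comparing the ages, aggrecan and the link protein gene Hapln1 were near or at 0 in elderly cells, while Has2 was 7.38-fold and Hapln3, at low counts, 3.49-fold higher. Across all 22214 genes tested with edgeR's quasi-likelihood test, with a call where the adjusted p was under 0.05, elderly mice had 430 genes called higher (1.94%) and 94 called lower (0.423%), 2.36% together. Of the 10 genes, 2 were called lower (Acan and Hapln1) and 1 higher (Has2), a count that carries no weight of its own, since the genes were picked with this comparison known. The ages did not overlap for 7 of them (40.9% of all genes), with the elderly pair below the mature pair for 5 (18.9% of all genes), Acan, Vcan, Hapln1, Hyal1 and Hyal2, and above it for 2 (22% of all genes), Hapln3 and Has2. Their median log2 fold change (elderly over mature) was −0.14, against −0.0059 over all genes tested.

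**Figure D2:**
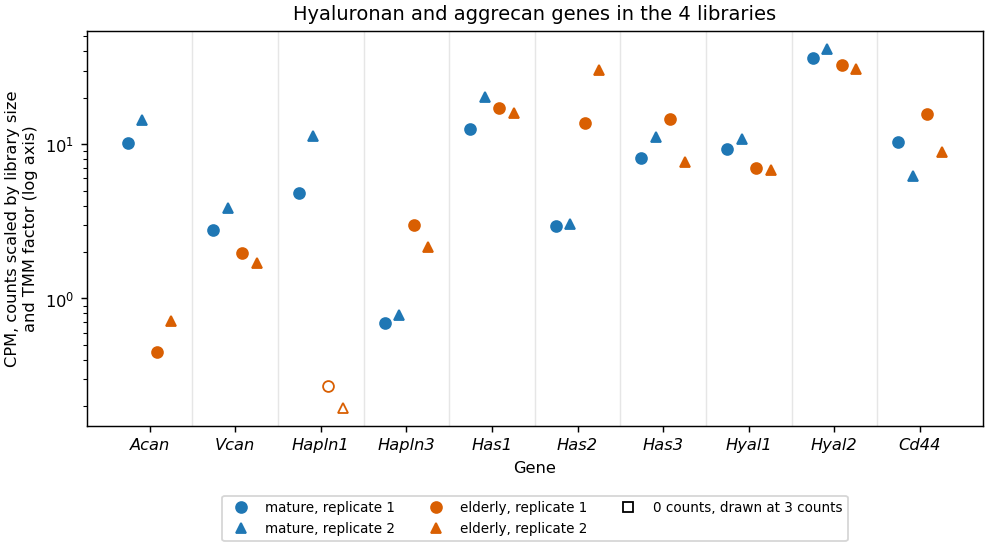
Level of each gene in each library, in CPM on a log axis, with mature libraries in blue and elderly libraries in orange, a circle for replicate 1 and a triangle for replicate 2. Open symbols are the 2 elderly libraries with 0 counts of Hapln1, drawn at 3 counts. Acan and Hapln1 lie lower and Has2 and Hapln3 higher in both elderly libraries, while the ages overlap for Has1, Has3 and Cd44.

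Acan encodes the large proteoglycan of cartilage. It was counted 117 and 166 times in mature and 5 and 11 times in elderly mice. That is 10.1 CPM (exact 95% Poisson interval 8.37 to 12.1) and 14.3 CPM (12.2 to 16.7) against 0.451 CPM (0.146 to 1.05) and 0.716 CPM (0.357 to 1.28). The ages did not overlap, and the lowest mature library stood far above the upper interval of both elderly libraries. The mean fell from 12.2 ± 2.96 CPM (SD, n = 2) to 0.583 ± 0.187 CPM (SD, n = 2), 20.9-fold lower, with a fitted log2 fold change of −4.33 (standard error 0.44). Such intervals cover counting error only.

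Vcan encodes the versican core protein, found in many loose connective tissues. It was counted 32 and 45 times in mature and 22 and 26 times in elderly mice. The elderly libraries lay below the mature libraries, at 1.84 ± 0.206 against 3.32 ± 0.785 CPM (SD, n = 2), with a log2 fold change of −0.86 (standard error 0.47) that was not called. With 7.33% of its exonic bases countable, this value leaves most of the versican messenger RNA unmeasured.

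Hapln1 encodes the cartilage link protein, which ties aggrecan to hyaluronan. It was counted 56 and 132 times in mature mice, at 4.85 and 11.4 CPM, and had 0 counts in both elderly libraries. A count of 0 was taken to allow up to 3 counts, which is 0.270 CPM in elderly replicate 1 and 0.195 CPM in elderly replicate 2. The mean of 8.11 ± 4.62 CPM (SD, n = 2) in mature mice was at least 34.8-fold higher than the mean of these limits, and at least 30.0-fold higher than the limit of elderly replicate 1. Without mature replicate 2, the level was at least 20.8-fold higher than the mean of the limits. The mature libraries themselves differed by more than their counting intervals, 3.66 to 6.29 CPM and 9.52 to 13.5 CPM. The fitted log2 fold change of a gene at 0 in an age rests on the prior count and is not given as a measurement.

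Hapln3 encodes a link protein of broader expression. It had 8 and 9 counts in the mature and 33 in each of the elderly libraries. The elderly libraries lay above the mature libraries, at 2.56 ± 0.585 against 0.734 ± 0.0591 CPM (SD, n = 2), 3.49-fold higher, with a log2 fold change of 1.78 (standard error 0.59) that was not called. The Poisson intervals of 0.299 to 1.36 CPM and 0.355 to 1.47 CPM in mature mice lay below that of elderly replicate 1, 2.05 to 4.18 CPM, and met that of elderly replicate 2 (1.48 to 3.02 CPM) at its lower end without overlapping it. The counts of the neighbours Acan and Hapln3 thus stood at 117 to 8 and 166 to 9 in mature mice and at 5 to 33 and 11 to 33 in elderly mice. For Hapln1 and Vcan, the other neighbours, the counts stood at 56 to 32 and 132 to 45 in mature and at 0 to 22 and 0 to 26 in elderly mice. With 7.33% of the bases of Vcan countable, these counts do not rank the levels of both genes. Per countable kilobase, Hapln1 was at 0.959 and 2.25 CPM and Vcan at 2.61 and 3.66 CPM in the mature libraries.

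**Figure D3:**
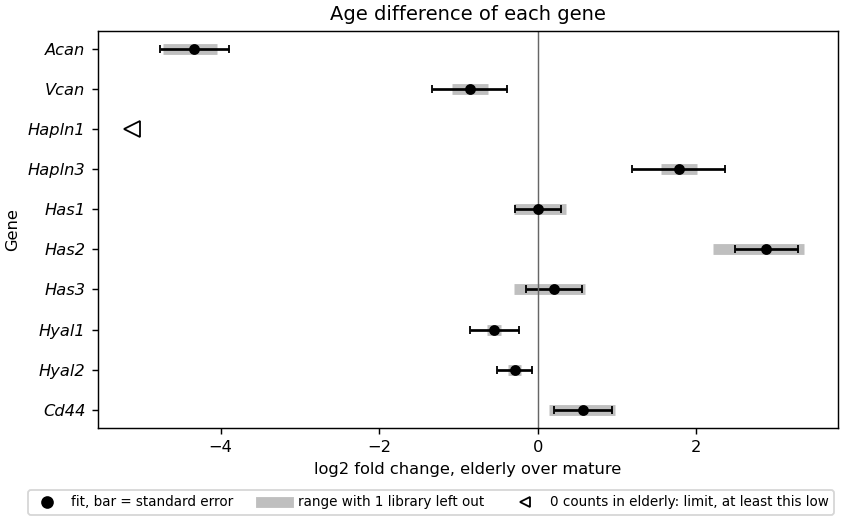
Log2 fold change of each gene, elderly over mature (horizontal axis), with its standard error from the quasi-likelihood fit (black) and the range when 1 library was left out (grey). The open triangle is the limit for Hapln1, at log2 −5.12. Acan (−4.33) and Hapln1 stand far below 0, Has2 (2.89) and Hapln3 (1.78) above it, and Has1 (0.01) and Has3 (0.20) at it.

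The synthases differ in the size and rate of the polymer they make, and Has2 is the form without which the mouse embryo dies. Has2 was counted 34 and 35 times in mature and 153 and 464 times in elderly mice. Both elderly libraries were above both mature libraries, but elderly replicate 2, at 30.2 CPM (27.5 to 33.1), was far above elderly replicate 1, at 13.8 CPM (11.7 to 16.2). The mean was 2.98 ± 0.0531 CPM in mature and 22 ± 11.6 CPM in elderly mice (SD, n = 2), 7.38-fold higher, with a log2 fold change of 2.89 (standard error 0.40). This rested in part on elderly replicate 2, without which it was 2.21. The antisense gene Has2as had 1 count in each library other than elderly replicate 2, which had 12.

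Has1 was counted 145 and 234 times in mature and 189 and 243 times in elderly mice. The ages overlapped, at 16.4 ± 5.39 and 16.4 ± 0.865 CPM (SD, n = 2), with a log2 fold change of 0.01 (standard error 0.29), between −0.29 and 0.36 with 1 library left out. Has3 was counted 94 and 129 times in mature and 162 and 118 times in elderly mice, which overlapped as well (log2 fold change 0.20, standard error 0.36, between −0.30 and 0.60 with 1 library left out). Neither was called.

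Within the family, the makeup of the synthase counts differed between ages. Has2 made up 12.5% (exact 95% binomial interval 8.78 to 17%) and 8.79% (6.20 to 12%) of the synthase counts in the mature libraries, and 30.4% (26.4 to 34.6%) and 56.2% (52.8 to 59.7%) in the elderly libraries. These intervals cover counting error only, and those of the elderly libraries did not overlap each other. Per countable base, which allows the genes to be compared, its share was 8.95% and 6.06% in mature and 24.3% and 45.7% in elderly mice, while that of Has1 was 74.1% and 78.6% in mature and 58.1% and 46.4% in elderly mice. Has1 was the leading synthase gene in every library by this measure, narrowly so in elderly replicate 2. The summed level of the synthase genes was 8.10 and 12.3 CPM per kilobase in mature and 14 and 16.3 CPM per kilobase in elderly mice.

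**Figure D4:**
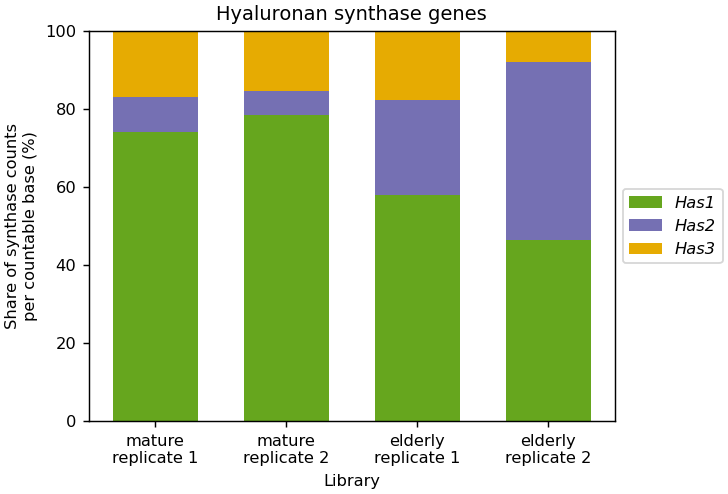
Share of Has1, Has2 and Has3 in the synthase counts per countable base (%, vertical axis), stacked to 100 for each library. The Has2 share is below 10% in both mature libraries and reaches 24.3% and 45.7% in the elderly libraries.

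Neither hyaluronidase gene was called. Hyal2, which starts the breakdown of long hyaluronan at the cell surface, was counted 417 and 479 times in mature and 361 and 475 times in elderly mice. The elderly libraries lay below the mature libraries once scaled, at 31.7 ± 1.15 against 38.7 ± 3.68 CPM (SD, n = 2), with a log2 fold change of −0.29 (standard error 0.22) that turned to 0.19 when the counts were scaled to the stromal marker genes. Hyal1, the lysosomal hyaluronidase, was counted 108 and 125 times in mature and 78 and 104 times in elderly mice, with a log2 fold change of −0.54 (standard error 0.30), and −0.07 under the same scaling. Those counts came from Hyal1-002 alone and leave Hyal1-001 unmeasured. The counts of Cd44, nearly all from the retained-intron transcript, overlapped between ages, at 10.3 and 6.21 CPM in mature and 15.7 and 8.92 CPM in elderly mice (log2 fold change 0.57, standard error 0.36).

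The order of levels among the 7 well-covered genes changed with age. Per countable kilobase, the means in mature mice were 20.4 ± 1.95 CPM for Hyal2, 7.83 ± 2.58 CPM for Has1, 1.66 ± 0.402 CPM for Acan, 1.63 ± 0.357 CPM for Has3, 1.60 ± 0.914 CPM for Hapln1, 0.735 ± 0.0131 CPM for Has2 and 0.222 ± 0.0179 CPM for Hapln3 (SD, n = 2). The libraries of Acan, Has3 and Hapln1 overlapped, so that no order can be given among these. In elderly mice the order was Hyal2 (16.8 ± 0.609 CPM per kilobase), Has1 (7.86 ± 0.414), Has2 (5.42 ± 2.86), Has3 (1.88 ± 0.828), Hapln3 (0.774 ± 0.177), Acan (0.0793 ± 0.0255) and Hapln1, which was at 0. There, the ranges of mean ± SD of Has1 and Has2 met, as did those of Has2 and Has3. The elderly libraries themselves did not overlap, at 8.15 and 7.57 for Has1, 3.40 and 7.45 for Has2 and 2.47 and 1.30 for Has3. By mean ± SD, the ranges of Hapln1 and Has2 met in mature mice as well.

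Other genes of hyaluronan and proteoglycan metabolism were taken from a list of 66, of which 58 could be tested. The fit called 4 higher (1.94% of all genes tested) and 1 lower (0.423% of all genes tested) in elderly mice, with a median log2 fold change of 0.02, against −0.0059 over all genes. The endocytic hyaluronan receptor gene Stab1 was counted 248 and 168 times in mature and 748 and 554 times in elderly mice (log2 fold change 1.52, standard error 0.32, edgeR adjusted p = 0.0271), and for all 5 receptor genes of the list, Stab1, Stab2, Layn, Lyve1 and Hmmr, the elderly pair was above the mature pair (22% of all genes). Stab2, Layn, Lyve1 and Hmmr were named after their values were seen and were not called (log2 fold changes 1.31, 2.47, 1.69 and 1.43, standard errors 0.42, 0.80, 0.88 and 0.89). Their counts were low. In mature and then elderly mice they were 23 and 24 against 49 and 87 for Stab2 and 1 and 10 against 39 and 29 for Layn. Lyve1 had 2 and 6 against 13 and 17, and Hmmr 6 and 3 against 16 and 11. Stab1 is also made by macrophages and sinusoidal vessels, and 4 of 8 monocyte and macrophage markers were called higher in the same comparison. The part of such cells in the Stab1 difference was not tested.

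Among 7 genes for proteases that cleave aggrecan and versican, Adamts5 was called higher and Adamts15 lower. The elderly pair was below the mature pair for 5 of the 7 (18.9% of all genes) and above it for 2 (22% of all genes). Their median log2 fold change was −0.47. Adamts5, the main aggrecanase of mouse cartilage, was counted 4978 and 3903 times in mature and 14785 and 21619 times in elderly mice (log2 fold change 1.84, standard error 0.20, edgeR adjusted p = 1.0e-03). Adamts15 was counted 3625 and 2368 times in mature and 946 and 2098 times in elderly mice (log2 fold change −1.22, standard error 0.26, edgeR adjusted p = 0.0328). The elderly libraries of Adamts15 were 85.3 and 137 CPM, both below the mature libraries at 314 and 204 CPM. Of the 20 genes for chondroitin sulfate, the sugar chain that aggrecan carries, 1 was called, the sulfotransferase gene Chst13, counted 8 and 6 times in mature and 48 and 49 times in elderly mice (log2 fold change 2.61, standard error 0.55, edgeR adjusted p = 0.0302), while the elderly pair was below the mature pair for 9 of the 20 (18.9% of all genes) and above it for 2 (22% of all genes). Among 5 tested genes for CD44 membrane linkers and splicing factors, the median log2 fold change was −0.23. There, the elderly pair was above the mature pair for 2 (22% of all genes) and below it for 1 (18.9% of all genes). The 1 called, higher in elderly mice, was Ezr, for ezrin, which joins CD44 to the cytoskeleton (log2 fold change 1.43, standard error 0.29, edgeR adjusted p = 0.0255). These calls depended on single libraries, mature ones included. Without mature replicate 1, Adamts15 was not called (edgeR adjusted p = 0.333), and without mature replicate 2, Adamts5 (0.0502), Stab1 (0.111), Chst13 (0.0864) and Ezr (0.154) were not, so that each of the 5 was lost with a mature library. The exact test at a dispersion of 0.2 called none of these 5 genes, with 179 higher and 29 lower over all genes.

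No gene was called among 7 genes of sugar nucleotide supply, 4 tested hyaluronan-binding proteins, 6 tested breakdown genes and the 4 other lecticans and link proteins. The genes with the highest mean CPM among the supply genes, the binding proteins and the lecticans and link proteins were Gfpt1 (log2 fold change 0.01), Itih5 (−0.30) and Bcan, which had between 0 and 16 counts. Without elderly replicate 1 or without elderly replicate 2, the quasi-likelihood test called no gene of the whole table, with 1465 and 1627 genes at an unadjusted p under 0.05. DESeq2 called 319 and 422 genes there, Acan, Hapln1 and Has2 among them both times.

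**Figure D5:**
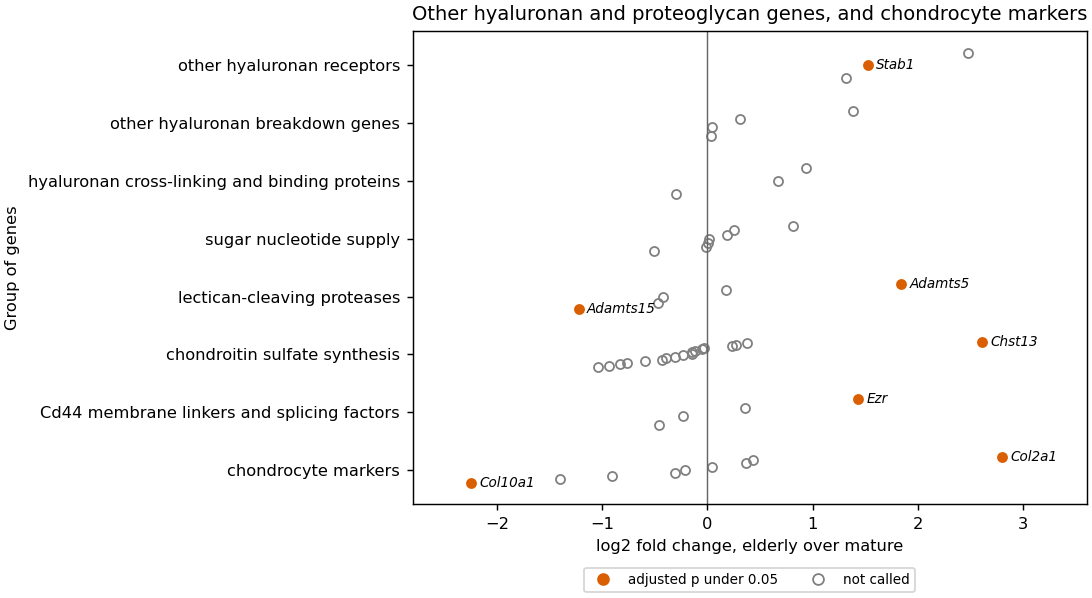
Log2 fold change, elderly over mature (horizontal axis), of the listed genes with a mean of at least 1 CPM, in 7 groups of hyaluronan and proteoglycan genes and for chondrocyte markers. Filled orange points were called at the 0.05 level, adjusted over all genes, and open points were not. The called genes are Stab1, Adamts5, Chst13, Ezr and Col2a1 above 0 and Adamts15 and Col10a1 below it.

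Acan and Hapln1 are also markers of chondrocytes, and other chondrocyte genes differed in both directions. Of 19 such genes, 13 could be tested, of which 1 was called higher and 1 lower, and the elderly pair was below the mature pair for 5 (18.9% of all genes) and above it for 4 (22% of all genes), with a summed level of 103 and 152 CPM at 3 months and 122 and 113 CPM at 24 months, of which Sox9 alone made up 53.7 and 67.1 CPM and 80.6 and 83.0 CPM. Col10a1, the collagen of hypertrophic cartilage, was counted 260 and 661 times in mature and 124 and 88 times in elderly mice (log2 fold change −2.24, standard error 0.43, edgeR adjusted p = 0.0183). Col2a1, the main collagen of cartilage, was counted 6 and 8 times in mature and 71 and 34 times in elderly mice over the 15.3% of its bases that were countable (log2 fold change 2.80, standard error 0.64, edgeR adjusted p = 0.0426). The call of Col10a1 was lost in the robust fit (edgeR adjusted p = 0.186) and in the exact test (0.0940), and its log2 fold change was −1.45 without mature replicate 2. That of Col2a1 was lost without mature replicate 1 (0.0975), and its log2 fold change was 1.88 without elderly replicate 1 and 3.38 without elderly replicate 2. Col11a1, a minor cartilage collagen, had 12 and 8 counts in mature mice and 0 in both elderly libraries, over 23.1% of its bases, and Matn3, for matrilin-3, was counted 34 and 33 times in mature and 16 and 12 times in elderly mice. Both were named after their values were seen, and neither was called. Sox9, the transcription factor of the cartilage lineage, was at 60.4 ± 9.49 CPM in mature and 81.8 ± 1.69 CPM in elderly mice (SD, n = 2), and Chad at 8.03 ± 1.57 and 6.52 ± 2.13 CPM (SD, n = 2), neither called. Col9a1 and Epyc were at 0 in every library, over 25.8% and 21.3% of their bases. So were Comp, Ucma and Prg4, which had almost no countable base, and Matn1 had 2 counts in all. The part of chondrocytes in the drop of Acan and Hapln1 was not tested.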

How the data were processed

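RNA was sequenced in 2 libraries per age, grouped by the titles of the sample labels. The authors trimmed reads with CutAdapt, aligned them to mm9 (NCBI Build 37) by HISAT2, ran featureCounts and deposited raw counts per Ensembl transcript, without normalization. Versions and the strand setting are not given in the sources used here. Of 95883 transcripts, all but 388 (0.0785% to 0.0888% of the counts) were matched to GENCODE release M1, and the counts were summed per gene identifier. A base was taken as countable where exons of exactly 1 transcript cover it on either strand. The 807 transcripts whose own bases are all covered by exons of the opposite strand had 0 counts as well.

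Genes with more than 2 counts over the 4 libraries (22214) were normalized by TMM (factors 0.970, 0.990, 1.06 and 0.983) and compared by the quasi-likelihood test, two-sided (edgeR 4.0.16, R 4.3.3, trended dispersion, prior count 0.125), with Benjamini-Hochberg adjustment over all genes and a call at an adjusted p under 0.05. Standard errors are the absolute log2 fold change over the square root of the F statistic. The study's exact test at a dispersion of 0.2 was an alternative, with DESeq2 1.42.0, other filters and scalings, the replicate number as a term and each library left out. The libraries of 1 age differed by more than sampling noise (chi-square per degree of freedom 16.0 in mature, 34.2 in elderly). A permutation test of 2 against 2 cannot go below p = 0.333, so the adjusted p rests on variance shared across genes. The procedure was checked on simulated counts, with changes set only in genes above a minimum mean count. That check does not bear on genes with few counts.

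The 10 genes and the lists of other genes were chosen with earlier results of these data known. The text names every one of the 10, each called gene of the pathway list, otherwise the gene with the highest mean CPM of a group, and of the stromal and chondrocyte lists the 3 highest by mean CPM and the called genes. For the other marker lists (osteoblast, neutrophil, monocyte and macrophage, B lineage, plasma cell, erythroid, megakaryocyte, endothelial, T and NK cell) counts and sums are given. Genes named from the osteoblast, plasma cell and endothelial lists were named after their values were seen. For Acan and Hapln1, the 5 genes of nearest profile were taken by Euclidean distance of centred log2 CPM (prior count 2) among genes with a mean of at least 1 CPM. Mzb1 was not found under that symbol and was not used here. Fold limits use 3 counts per library. Sequences are from RefSeq (GRCm38.p6). A gene that the rule would name and a sequence are not reported here.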

Additional observations from a re-analysis of the deposited data

How the results depend on the processing

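Acan and Hapln1 stayed lower and Has2 higher under every alternative that gave a value. Among the alternatives with a test, they remained called under all but those that left out an elderly library in the quasi-likelihood test. The scaling to stromal marker genes had no test and gave no value for Hapln1. Over all genes, 430 were higher and 94 lower in elderly mice. DESeq2 gave 153 lower, the exact test at a dispersion of 0.2 gave 179 and 29, the robust fit 691 and 188, no filter 866 and 218, and a log2 fold change over 2 as well 177 and 32. With 1 library left out, 0 to 461 were higher and 0 to 94 lower in the quasi-likelihood test. Called pathway genes (4 higher, 1 lower) became 0 and 0 in the exact test and 8 higher with no filter, and ranged from 0 to 4 and from 0 to 1 with a library left out. Of the 10 genes, 0 to 1 were called higher and 0 to 2 lower. Marker genes (19 higher, 2 lower) ranged from 0 to 17 and from 0 to 3 with a library left out in either tool, with 1 lower in DESeq2, the exact test, the robust fit and filterByExpr and 4 lower with no filter. The cause of these shifts was not tested.

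With the replicate block, 962 genes were higher and 314 lower, and 8 and 2 of the pathway list. The numbers did not pair the libraries (correlation of same-numbered deviations 0.0092), and the calls among the 10 genes were as before.

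Some alternatives were chosen after seeing the data. DESeq2 without elderly replicate 1 gave 233 higher and 86 lower genes, and without elderly replicate 2 it gave 265 and 157, with 2 and 4 higher and 0 and 1 lower in the pathway list and 10 and 8 higher and 2 and 3 lower among markers. Scaling to the stromal marker genes moved Vcan to −0.36, Hapln3 to 2.31, Has1 to 0.49, Has3 to 0.76, Hyal1 to −0.07 and Hyal2 to 0.19. With 1 library in an age, that library is assumed to vary like the others. For genes with few counts, such as Hapln3, the counting intervals are wide.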

Other observations

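Among 14397 genes with a mean of at least 1 CPM, the profile over the 4 libraries nearest to that of Acan was that of the noncoding gene 4921534H16Rik (distance 0.70), which had 26 and 43 counts in the mature and 0 in both elderly libraries. It was followed by 5430419D17Rik (0.97), A2m (0.98), Tacr1 (0.99) and Asxl3 (1.05). A2m, for the protease inhibitor alpha-2-macroglobulin, was counted 5843 and 9632 times in mature and 196 and 916 times in elderly mice. Tacr1, the receptor for substance P, had 165 and 290 against 4 and 26 counts. For Hapln1 the nearest were 4921534H16Rik (1.36), Acan (1.77), A2m (2.08), Tacr1 (2.11) and 5430419D17Rik (2.45). With 4 libraries, such likeness is a description of level and direction.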
